A study of Mus musculus with 18 samples.

Results

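Interferon-stimulated antiviral genes are the genes that cells switch on after an interferon binds its receptor. The 36 genes described here were chosen by mouse symbol. They comprise transcription factors of the response, its feedback inhibitor Socs1, sensors of foreign nucleic acid, the ISG15 modification system, and the IFIT, OAS, Mx, PARP and other effector families. Of the 36, 35 were among the 21015 gene identifiers of the deposited table, and all 35 were among the 16125 genes with enough counts to be tested. Isg15 itself was not analysed here. Across the 18 libraries the 35 genes varied mostly together from library to library within a group, and by less between the groups. Of the 35, edgeR's quasi-likelihood test called none in any of 11 comparisons of drug or host genotype. The same test called between 0% and 2.5% of all genes in these comparisons, so a count of 0 among 35 does not set them apart from other genes.

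RNA was sequenced in bulk from tumours of MC38-OVA, a mouse colon carcinoma cell line carrying the model antigen ovalbumin, implanted in mice aged 10 weeks. Hosts were wild type (WT) or homozygous for loss of Adra2a (labelled ADRA2A-/-, here KO), which encodes the alpha2A-adrenergic receptor. They received clonidine, guanabenz or PBS by daily intraperitoneal injection, and tumours were taken 7 days after treatment, per the labels. Both drugs activate alpha2-adrenergic receptors, and the labels give no dose. The groups, each of 3 libraries, are WT-Control and KO-Control (PBS hosts, entered as untreated), WT-Clonidine and KO-Clonidine, and WT-Guanabenz and KO-Guanabenz. The titles of the KO-Guanabenz libraries name guanabenz whereas their treatment entry reads untreated, so every result that uses them rests on the titles. The tumour cells keep their own Adra2a gene, so only the host cells of a KO tumour lack it. The strain entry names the tumour line and not the mouse. Nothing ties libraries to animals, so a p-value here reflects library-to-library spread alone, and some of that may be technical.

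As background, type I interferons signal through the kinases JAK1 and TYK2 to the complex ISGF3, which contains STAT2 and IRF9 and binds interferon-stimulated response elements (ISREs) in promoters. Interferon gamma acts at gamma-activated sequences (GAS) and is a strong inducer of Irf1. In tumours the response can arise in cancer cells, macrophages, dendritic cells and lymphocytes alike.

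The promoters of these genes were searched for both elements. RefSeq windows of 300 bases, 250 before and 50 after a start site (GRCm38.p6), were found for 26 of the 36 genes, Isg15 included, in 29 windows. An ISRE core, searched as GAAA, any 2 bases, GAAA on both strands, occurred in 12 of the 29 windows (41.4%), beside 3.44% of all 32851 windows in the table. A GAS, searched as TTC, any 3 bases, GAA, which reads the same on both strands, occurred in 5 windows (17.2%), beside 8.3% of all windows. The windows of Isg15, Ifit1, Ifit3, Oas1a, Bst2, Ddx60 and Socs1 each held more than a single ISRE core. These matches are letters in a window and not measured binding. The windows of Ifi44, Oasl1, Irf7 and Cmpk2, which varied together with the other effectors among the libraries (below), held no ISRE core. Shown here are the 150 bases before the start site of 3 effector genes that varied together among the libraries (Ifit1, Bst2 and Rsad2), and of Irf1 and Socs1, which did not follow them. Each is written 5′ to 3′ on the gene's own strand, with ISRE cores and GAS in capitals.
Ifit1 (chr19:34640739-34640888, plus strand): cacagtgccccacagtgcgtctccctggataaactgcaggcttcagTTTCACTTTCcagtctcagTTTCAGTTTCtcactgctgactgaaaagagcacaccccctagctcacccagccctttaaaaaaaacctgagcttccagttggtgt
Bst2 (chr8:71537473-71537622, minus strand): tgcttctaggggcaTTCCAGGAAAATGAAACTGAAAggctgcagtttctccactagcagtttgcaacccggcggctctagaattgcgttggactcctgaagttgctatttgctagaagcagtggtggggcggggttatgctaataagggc
Rsad2 (chr12:26456453-26456602, minus strand): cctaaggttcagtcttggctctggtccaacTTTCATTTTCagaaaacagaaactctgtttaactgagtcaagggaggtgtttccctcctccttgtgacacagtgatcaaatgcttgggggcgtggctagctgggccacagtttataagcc
Irf1 (chr11:53769864-53770013, plus strand): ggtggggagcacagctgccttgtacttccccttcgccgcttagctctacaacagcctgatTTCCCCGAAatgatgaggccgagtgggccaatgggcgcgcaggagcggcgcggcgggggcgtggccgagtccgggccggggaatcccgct
Socs1 (chr16:10785537-10785686, minus strand): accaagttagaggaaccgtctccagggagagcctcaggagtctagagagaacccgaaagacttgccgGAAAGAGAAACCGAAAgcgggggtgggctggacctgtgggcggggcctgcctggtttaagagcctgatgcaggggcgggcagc
In Ifit1 and Rsad2 the capitals are the core read on the opposite strand. In Bst2 a GAS runs into 2 overlapping ISRE cores, and in Socs1 the capitals are 2 overlapping cores. The Irf1 stretch holds a GAS and no ISRE core, and it belongs to the first of the 2 Irf1 start sites in the table.

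**Figure D1:**
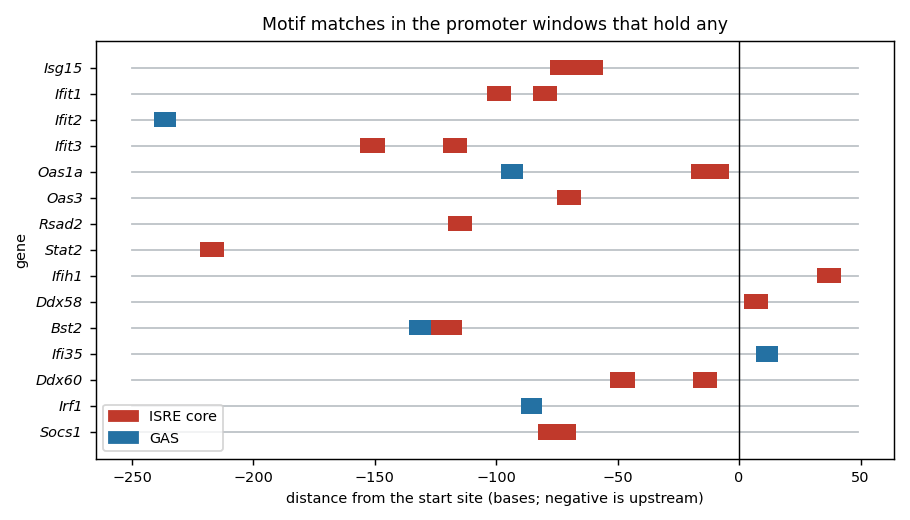
Position of ISRE cores (red) and GAS (blue) in the 300-base windows that hold any, in bases from the start site, with negative values upstream. Of 20 ISRE core matches, 18 lie upstream of the start site and 16 of these within 150 bases of it.

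Total counts per library, in units of 1e6, ranged from 54.7 to 491.1 with a median of 92.4. The highest was WT-Control 3, beside 98.8 and 96.5 in WT-Control 1 and 2. WT-Control 3 was also the lowest of its group for 30 of the 35 genes (below), and the part of depth was not tested. The lowest count of any of the 35 genes in any library was 211, for Batf2. For most of these genes counting error is therefore small, and the precision is set by the spread between libraries. Counting error weighs more for Batf2, whose SD within groups was only 0.16 on the log2 scale. Adra2a was scarce throughout, at 0.286 to 0.589 counts per 1e6 counts (CPM) in WT hosts and 0.0917 to 0.293 CPM in KO hosts. Transcripts of Y-linked genes averaged above 1 CPM in 3 of 3 WT-Control libraries, in 0 of 3 KO-Clonidine libraries and in 2 of 3 of each other group, and the labels give no sex. The labelled carcinoma was checked on 8 colon epithelial genes: 7 were tested, and their summed level lay between 4.09 and 13.3 CPM, with the keratins Krt8 and Krt18 below 1 CPM in every library. In bulk tumour RNA, fewer cells of a type and less RNA per cell cannot be told apart.

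All 35 genes were detected in every library. Per kilobase of transcript, the highest median levels were those of Bst2 (242 CPM per kb), which encodes the membrane protein tetherin that holds budding virions at the cell surface, of Irf1 (94.2) and of Irf7 (57.5). The lowest were those of Mx2 (2.35), Batf2 (3.19) and Ddx60 (3.47). Between the lowest and the highest library, the level of a gene differed from 1.27-fold for Irf1 to 2.98-fold for Ifi44. Some levels are uncertain because transcripts share sequence: 68.8% of the 31-base words of Oas1a and 61.8% of those of Ifit3 also occur in other genes, mainly Oas1g and Ifit3b, and Mx2 shares 12.1%, mainly with Mx1. RefSeq lists Mx1 and Mx2 as transcribed pseudogenes in this assembly. The genes Dtx3l and Parp9 overlap on chromosome 16, and whether strand was used in counting is not stated.

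The leading feature of these genes was a shared spread between libraries of the same treatment and genotype. Expressed as log2 CPM minus each gene's mean over the 18 libraries, the median of the 35 genes was -0.05, 0.23 and -0.32 in WT-Control libraries 1 to 3, and 0.34, -0.04 and -0.08 in WT-Clonidine. It was -0.2, 0.01 and -0.04 in WT-Guanabenz, and -0.32, 0.28 and -0.05 in KO-Control. It was 0.22, -0.29 and 0.07 in KO-Clonidine, and 0.1, 0.02 and 0.07 in KO-Guanabenz. WT-Clonidine 1, KO-Control 2, WT-Control 2 and KO-Clonidine 1 were thus high, WT-Control 3, KO-Control 1 and KO-Clonidine 2 were low, and the KO-Guanabenz libraries lay close together. Group means of this level spanned only -0.08 (WT-Guanabenz) to 0.07 (WT-Clonidine and KO-Guanabenz), against a pooled SD of 0.224 between libraries of a group (n = 3 in each of 6 groups), and the ranges of all 6 groups overlapped except that WT-Guanabenz stayed below KO-Guanabenz.

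**Figure D2:**
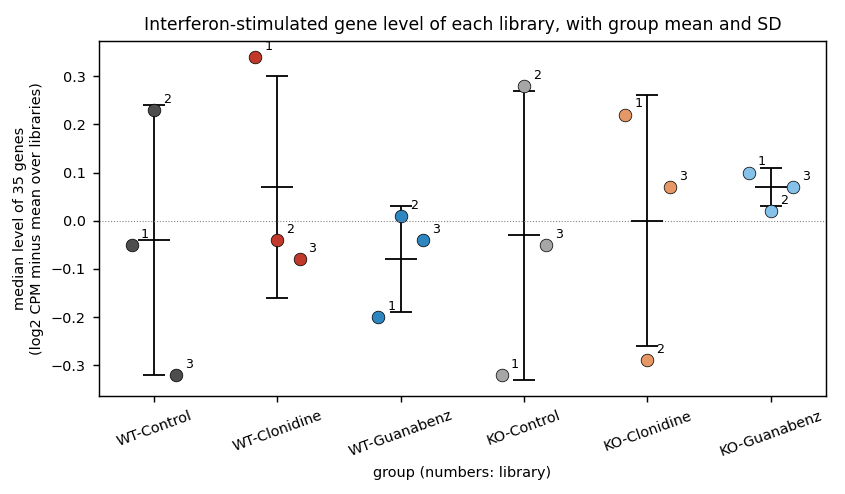
Median level of the 35 genes in each library (points, numbered by library), as log2 CPM minus each gene's mean over the 18 libraries, with the mean and SD of each group of 3. WT-Clonidine 1 is highest at 0.34, and WT-Control 3 and KO-Control 1 are lowest at -0.32.

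Nearly all of the genes took part in this pattern. WT-Clonidine 1 was the highest library of its group for 33 of 35 genes, KO-Control 2 for 32, KO-Clonidine 1 for 28 and WT-Control 2 for 26. KO-Control 1 was the lowest of its group for 31 genes, and WT-Control 3 and KO-Clonidine 2 for 30 each. After the group means were removed, a single component held 82.7% of the variance of the 35 genes and the next held 5.72%. Over all 16125 genes the first component held 23.1%. The 35 are a small and related set, and no other set of that size was compared. On the component of the 35, 32 genes had weights of the same sign, and the 3 others, Irf1 (-0.01), Socs1 (-0.03) and Batf2 (-0.04), had weights near 0. The median SD of the 35 genes within groups was 0.25 on the log2 scale, beside 0.14 for all tested genes, and 30 of the 35 lay above that value.

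**Figure D3:**
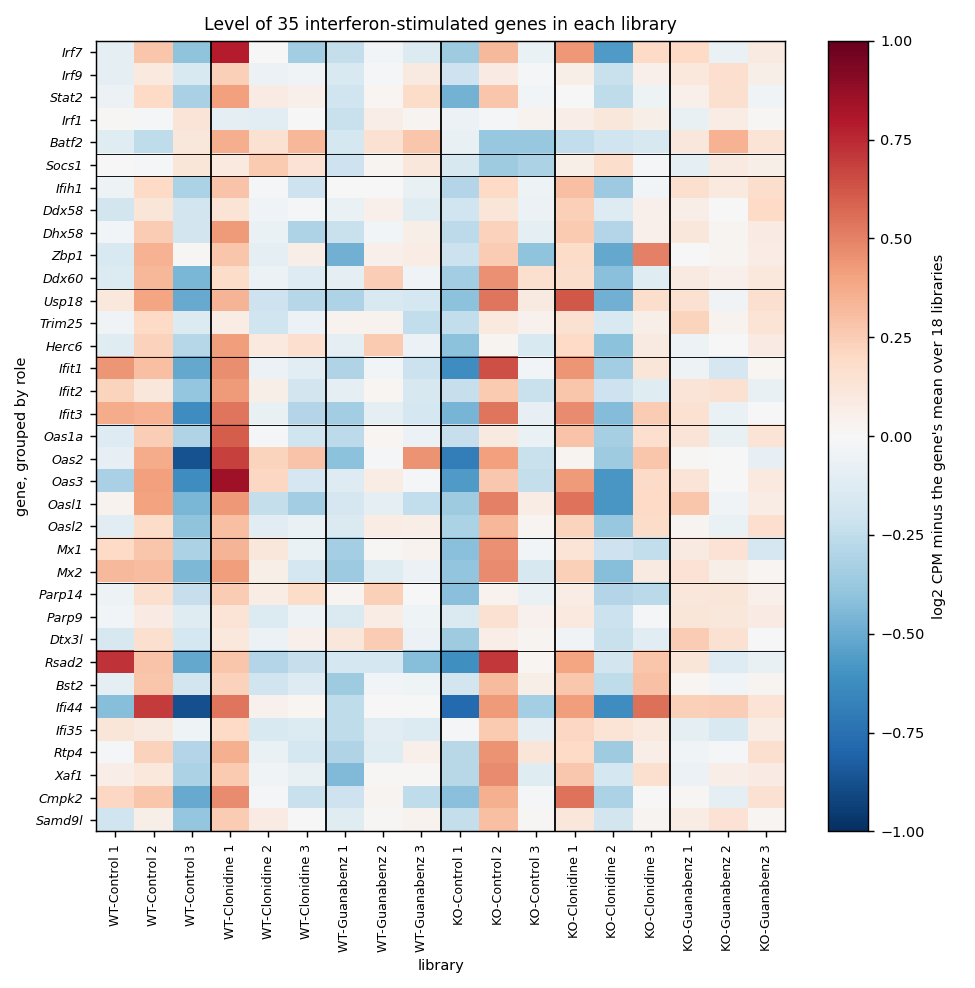
Level of each of the 35 genes (rows, grouped by role) in each of the 18 libraries (columns), as log2 CPM minus the gene's mean over libraries, red for higher and blue for lower. WT-Clonidine 1, KO-Control 2 and KO-Clonidine 1 are red and WT-Control 3, KO-Control 1 and KO-Clonidine 2 are blue for nearly all genes, whereas Irf1, Socs1 and Batf2 do not follow.

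Marker genes of other cells were measured in the same libraries, as medians of log2 CPM minus each gene's mean. In WT-Clonidine 1 the T cell list (17 of 18 genes tested) stood at 0.75, the NK cell list (9 of 10) at 0.65 and the plasmacytoid dendritic cell list (11 of 12, which includes Bst2 of the 35) at 0.35. Of the other high libraries, KO-Control 2 had a T cell level of -0.33 and KO-Clonidine 1 had -0.49. The T cell level of WT-Control 2, also high, is not reported here. In the low libraries WT-Control 3, KO-Control 1 and KO-Clonidine 2 the T cell level was -0.11, 0.13 and -0.06. The macrophage and monocyte list (14 of 14) stayed between -0.09 and 0.17 in all 18 libraries. No gene of these lists was at 0 over all libraries. Summed over its genes, the T cell list spanned 67.3 to 88.1 CPM in WT-Control, 97.3 to 130 in WT-Clonidine, 52 to 100 in WT-Guanabenz, 67 to 90.9 in KO-Control, 64.7 to 78.9 in KO-Clonidine and 80 to 95.9 in KO-Guanabenz. The part of cell content in the shared pattern was not tested.

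Among the transcription factors, Irf7, the amplifier of type I interferon production, showed the pattern plainly. It stood at 125, 162 and 101 CPM in WT-Control, 230, 133 and 105 in WT-Clonidine and 113, 131 and 121 in WT-Guanabenz. In KO hosts it stood at 104, 167 and 127 CPM in KO-Control, 180, 89.9 and 153 in KO-Clonidine and 153, 127 and 142 in KO-Guanabenz. A single library, WT-Clonidine 1, lay well above the others, and the other 2 of its group were inside the WT-Control range. The ISGF3 subunits were steadier: Irf9 ranged from 32.4 to 44.6 CPM (median 38.4) and Stat2 from 45.8 to 84.5 CPM (median 63.9), both highest in WT-Clonidine 1.

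Irf1, a factor induced early by interferon gamma, was the steadiest of the 35 genes, with an SD within groups of 0.08 on the log2 scale. It stood at 201, 198 and 218 CPM in WT-Control, 186, 184 and 199 in WT-Clonidine and 171, 208 and 203 in WT-Guanabenz. In KO hosts the values were 191, 198 and 204 CPM in KO-Control, 208, 215 and 207 in KO-Clonidine and 189, 210 and 201 in KO-Guanabenz. WT-Clonidine 1, the highest library of its group for 33 of the 35 genes, was among the lower ones for Irf1. Batf2, a basic leucine zipper factor of macrophages and dendritic cells, stood at 4.03, 3.67 and 4.73 CPM in WT-Control, 5.63, 4.87 and 5.51 in WT-Clonidine and 3.88, 4.87 and 5.31 in WT-Guanabenz. In KO hosts Batf2 stood at 4.15, 3.36 and 3.36 CPM in KO-Control, 3.7, 3.82 and 3.91 in KO-Clonidine and 4.74, 5.58 and 4.8 in KO-Guanabenz. All WT-Clonidine libraries lay above all WT-Control libraries for Batf2, as for 20.9% of all genes without overlap in either direction, and all KO-Guanabenz libraries above all KO-Control libraries, beside 19.6%. WT-Guanabenz overlapped WT-Control.

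Socs1, the feedback inhibitor that shuts JAK kinases off, likewise varied little within groups (SD 0.11, log2). It stood at 20.4, 20.1 and 22.1 CPM in WT-Control, 21.8, 24.4 and 22.5 in WT-Clonidine and 17.6, 20.7 and 22 in WT-Guanabenz. In KO hosts it stood at 18.2, 15.9 and 16.3 CPM in KO-Control, 21.2, 23 and 20.1 in KO-Clonidine and 19, 21.6 and 21.2 in KO-Guanabenz. The 3 KO-Control libraries lay below every library of WT-Control, KO-Clonidine and KO-Guanabenz, beside 8.33%, 8.83% and 19.6% of all genes without overlap in those comparisons. All 3 comparisons rest on the same 3 KO-Control libraries.

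**Figure D4:**
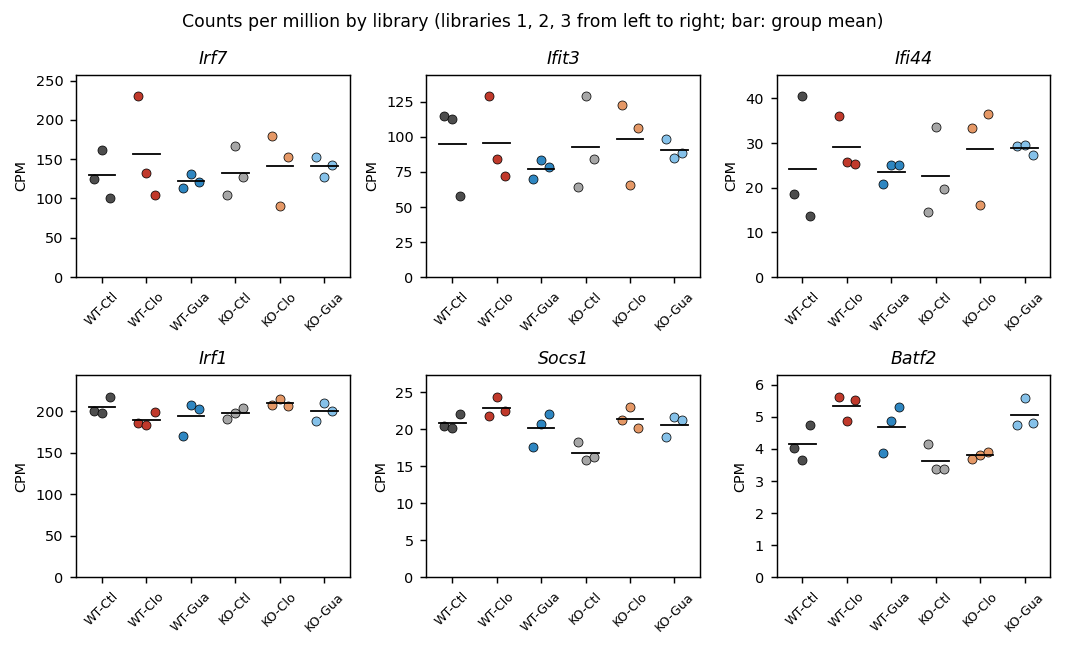
CPM of 6 genes in each library (points, libraries 1 to 3 from left to right in each group) with the group mean (bar); Ctl is control, Clo clonidine and Gua guanabenz. Irf7, Ifit3 and Ifi44 spread widely within groups, and Irf1, Socs1 and Batf2 do not.

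The sensors of nucleic acid are the helicases Ddx58 (RIG-I), Ifih1 (MDA5), Dhx58 (LGP2) and Ddx60, and Zbp1, which recognises left-handed nucleic acid and can start necroptosis. Ddx58 was the steadiest, at 85.7 to 116 CPM (median 97.7). Ifih1 ranged from 39.1 to 61.7 CPM (median 49.7), Dhx58 from 23.8 to 39.7 (median 29.4) and Ddx60 from 16.4 to 30.9 (median 22.7). Zbp1 ranged 2.03-fold, from 56.3 CPM in KO-Clonidine 2 to 114 in KO-Clonidine 3, so that its extremes were 2 libraries of the same group.

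In the ISG15 system, Usp18 removes ISG15 from proteins and also restrains the type I interferon receptor, and Herc6 and Trim25 are ubiquitin-type ligases. Usp18 ranged from 18.6 to 40.5 CPM (median 26.9), Herc6 from 24.6 to 43.8 (median 33.2) and Trim25 from 86.4 to 120 (median 105). The 2.18-fold range of Usp18 set it with the effectors, and the 1.39-fold range of Trim25 with the steadier genes.

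The IFIT proteins bind foreign RNA and block its translation. Ifit3 stood at 115, 113 and 57.7 CPM in WT-Control, 129, 84.5 and 72.4 in WT-Clonidine and 69.7, 83.2 and 78.5 in WT-Guanabenz. In KO hosts Ifit3 stood at 64.5, 129 and 83.9 CPM in KO-Control, 123, 65.7 and 106 in KO-Clonidine and 98.6, 84.9 and 88.8 in KO-Guanabenz. The 2 control groups and the 2 clonidine groups overlapped widely. Ifit1 (chromosome 19, 34640889 to 34650009, GRCm38.p6) ranged from 37.3 CPM in KO-Control 1 to 89.8 in KO-Control 2, and Ifit2 from 77.9 CPM in WT-Control 3 to 137 in WT-Clonidine 1.

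The OAS family makes the oligoadenylates that activate RNase L, and its OAS-like members act on other steps. Oas2 ranged 2.92-fold (14.4 to 42.1 CPM) and Oas3 2.77-fold (18.5 to 51.3 CPM), both from WT-Control 3 to WT-Clonidine 1. Oas1a ranged from 40 to 76.5 CPM, Oasl1 from 18.9 to 41.1 and Oasl2, the most abundant of the family per kilobase, from 86.2 to 143. The Mx GTPases, which trap viral nucleocapsids in mice that carry intact copies, ranged from 22.3 to 41 CPM for Mx1 and from 4.06 to 7.67 for Mx2, both highest in KO-Control 2. Of the ADP-ribosylation factors, Parp14 ranged from 83.9 to 134 CPM, and Parp9 and its partner ligase Dtx3l from 62.2 to 80.4 and from 67.6 to 103.

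Among the other effectors, Ifi44, a protein that restrains cell proliferation, had the widest spread. It stood at 18.6, 40.5 and 13.6 CPM in WT-Control, 36.1, 25.7 and 25.3 in WT-Clonidine and 20.9, 25 and 25 in WT-Guanabenz. In KO hosts it stood at 14.6, 33.6 and 19.7 CPM in KO-Control, 33.4, 16.2 and 36.6 in KO-Clonidine and 29.4, 29.6 and 27.4 in KO-Guanabenz. The WT-Control libraries spanned the whole range of the series. Rsad2 (viperin), a radical SAM enzyme that makes a chain-terminating nucleotide, ranged from 39.9 CPM in KO-Control 1 to 101 in WT-Control 1, and its neighbour Cmpk2, a mitochondrial nucleotide kinase, from 22.1 to 45.6. Xaf1, a pro-apoptotic factor, ranged from 25.4 to 47.8 CPM and Rtp4, a receptor chaperone, from 36.2 to 63. Samd9l, a restrictor of poxvirus growth, ranged from 60.6 to 98 CPM, Bst2 from 153 to 243 and Ifi35 from 42.9 to 61.4.

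Clonidine in WT hosts was followed by slightly higher levels of most of these genes, none of which passed the test. The median of the 35 fitted log2 changes was 0.08 (quartiles 0.009 and 0.212), with 27 above 0 and 8 below, beside a median of 0.003 for all genes. Of all genes 50.8% were above 0. The 35 vary together between libraries, so here and below their directions are not separate observations. edgeR's quasi-likelihood test with Benjamini-Hochberg adjustment called 0 of 35, and 0% of all genes, and 2 of 35 had an unadjusted p under 0.05, beside 12.9% of all genes. DESeq2 and limma-voom also called 0 of the 35, beside 2.19% and 4.79% of all genes. For 32 of the 35 the 95% interval of the change lay inside 1 log2 unit of 0, so changes larger than 2-fold were outside the interval for those genes.

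Batf2 had the smallest p in WT hosts given clonidine, with a 1.28-fold higher level (log2 change 0.36, SE 0.14, adjusted p = 0.282 in edgeR). It was also the only gene of the 35 with all WT-Clonidine libraries above all WT-Control libraries; 20.9% of all genes showed no overlap. Samd9l followed at 0.28 (SE 0.13, adjusted p = 0.359 in edgeR), with 94.5, 83.9 and 79.4 CPM against 69.2, 82.8 and 60.6, so its groups overlapped. Oas2 had the largest log2 change, 0.53 (SE 0.29), and Oas3 had 0.47 (SE 0.29); the 95% interval of Oas2 reached from -0.09 to 1.14. Herc6 stood at 0.28, Parp14 at 0.21, Socs1 at 0.13 and Irf1 at -0.12, each with an interval that included 0. The direction of the median rested on single libraries: it was -0.07 without WT-Clonidine 1 and 0.19 without WT-Control 2. In the same comparison the log2 change was above 0 for 17 of 17 T cell genes (median 0.75) and for 9 of 9 NK cell genes (median 0.37), with 0 called in either list. Other summed lists were also higher without overlap: conventional dendritic cell (92.7 to 104 against 78.4 to 86.2 CPM), endothelial (262 to 284 against 222 to 253) and B cell (7.55 to 9.13 against 5.86 to 7.44). The remaining cell lists overlapped. The part of any cell list in the values of the 35 genes was not tested.

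Clonidine in KO hosts gave a median log2 change of 0.045 over the 35 genes, with 25 above 0 and 10 below, beside 0.001 for all genes. edgeR's test called 0 of 35 beside 0.0186% of all genes. DESeq2 and limma-voom also called 0 of 35, beside 0.18% and 0.0186% of all genes. In edgeR 1 of 35 had an unadjusted p under 0.05, beside 5.52% of all genes. That gene was Socs1, 1.27-fold higher (log2 change 0.35, SE 0.09, adjusted p = 0.478 in edgeR), with a 95% interval of 0.16 to 0.54. Socs1 and Irf1 were the genes whose KO-Clonidine libraries all lay above the KO-Control libraries, beside 8.83% of all genes without overlap. Irf1 differed by 0.09, Ddx60 by -0.23, Ddx58 by 0.1, Zbp1 by 0.21, Ifi44 by 0.34, Herc6 by 0.15 and Ifi35 by 0.09, each with an interval that included 0. Without KO-Clonidine 1 the median was -0.09, and without KO-Control 2 it was 0.2.

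Whether the response to clonidine depended on the host receptor was tested as the WT effect minus the KO effect. The median of the 35 differences was 0.064 (20 above 0 and 15 below), beside 0.003 for all genes. edgeR's interaction test called 0 of 35 beside 0% of all genes, with 0 of 35 at an unadjusted p under 0.05 beside 8.94% of all genes. DESeq2 called 0 of 35, with 1 at an unadjusted p under 0.05, and limma-voom called 0, with 0. Of all genes they called 0.205% and 0.0124%. The smallest p was that of Irf1, whose fitted change was -0.12 in WT hosts and 0.09 in KO hosts, a difference of -0.2 (SE 0.1, adjusted p = 0.564 in edgeR). Samd9l differed by 0.33 (SE 0.18), Batf2 by 0.28 (SE 0.2), Socs1 by -0.21 (SE 0.12), Stat2 by 0.29, Ddx60 by 0.29, Parp14 by 0.23 and Ifi35 by -0.16. Intervals were wide, and for 31 of the 35 they stayed inside 1 log2 unit of 0. The median was -0.11 without WT-Clonidine 1 and 0.18 without WT-Control 2. The T cell list had 17 of 17 differences above 0 (median 0.78, 0 called), and its part in these values was not tested.

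**Figure D5:**
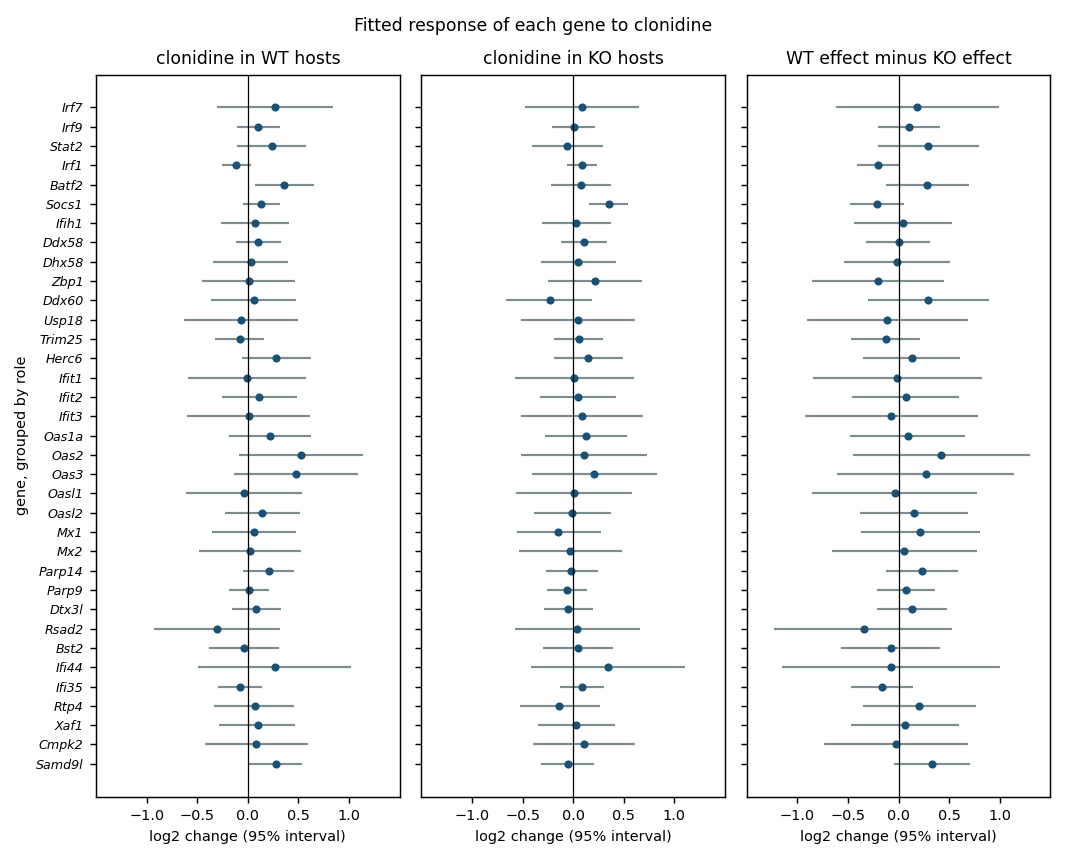
Fitted log2 change (points) with 95% interval (lines) of each of the 35 genes after clonidine in WT hosts, in KO hosts, and as the WT effect minus the KO effect. Nearly all intervals include 0; those of Batf2 and Samd9l in WT hosts and of Socs1 in KO hosts do not, and none of these passed the adjusted threshold.

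Guanabenz in WT hosts, compared with the same WT-Control libraries as clonidine, gave a median log2 change of -0.077 (13 above 0 and 22 below), beside 0.01 for all genes. edgeR's test called 0 of 35 beside 0% of all genes, and 1 of 35 had an unadjusted p under 0.05 beside 11.4% of all genes. DESeq2 and limma-voom called 0 of 35, beside 1.07% and 0.0372% of all genes. Ifi35, which regulates innate signalling through its partner NMI, had the smallest p at -0.22 (SE 0.1, adjusted p = 0.416 in edgeR), from 55.8, 54.6 and 49.7 CPM to 42.9, 47.6 and 46.5. It was the only gene of the 35 without overlap, beside 14.6% of all genes. Rsad2 differed by -0.5 (SE 0.29), from 101, 74.6 and 42.8 CPM to 54.2, 54.1 and 45.5, which lie inside the spread of the controls. Dtx3l differed by 0.16 and Batf2 by 0.18. The median ran from -0.17 without WT-Control 3 to 0.04 without WT-Control 2.

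Guanabenz in KO hosts, with the KO-Guanabenz libraries as titled, gave a median log2 change of 0.082 (24 above 0 and 11 below), beside -0.006 for all genes. Of the 35, 0 were called by edgeR's test beside 0.0124% of all genes, and 2 of 35 had an unadjusted p under 0.05 beside 15.1% of all genes. Batf2 was 1.39-fold higher (log2 change 0.48, SE 0.14, adjusted p = 0.148 in edgeR). DESeq2 called Batf2 as the single gene of the 35 (0.48, SE 0.15, adjusted p = 0.0355), where it called 443 of all genes (2.75%). limma-voom called 0 of the 35 and 343 of all genes (2.13%). Socs1 was 1.23-fold higher (0.29, SE 0.09, adjusted p = 0.159 in edgeR). Parp14 differed by 0.23 and Dtx3l by 0.21. The libraries of Batf2, Socs1 and Parp14 did not overlap between the groups, beside 19.6% of all genes. Without KO-Control 1 the median was -0.06, and without KO-Control 2 it was 0.24.

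The difference between these responses, the guanabenz effect in WT hosts minus that in KO hosts, was below 0 for 31 of 35 genes. Of all genes 52.3% were above 0. The median of the 35 was -0.133, beside 0.01 for all genes. edgeR's interaction test called 0 of 35 beside 0.0062% of all genes, and 1 of 35 had an unadjusted p under 0.05 beside 5.71% of all genes. DESeq2 and limma-voom called 0 of 35, beside 0.0806% and 0.0124% of all genes. Socs1 had the smallest p at -0.35 (SE 0.13, adjusted p = 0.866 in edgeR), followed by Batf2 at -0.3, Trim25 at -0.24 and Irf1 at -0.1. The median was -0.3 without KO-Control 2 and -0.01 without WT-Control 2.

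Clonidine and guanabenz were compared directly in WT hosts, where doses are not given and so cannot be taken as matched. Levels were higher under clonidine for 32 of 35 genes, beside 48.3% of all genes. The median difference was 0.178, beside -0.005 for all genes. edgeR's test called 0 of 35 beside 0% of all genes, with 0 of 35 at an unadjusted p under 0.05 beside 5.05% of all genes. DESeq2 called 0, with 0 at that p, and limma-voom called 0, with 1. Of all genes they called 0.0248% and 0.0062%. Socs1 differed by 0.19 (SE 0.09, 95% interval 0 to 0.37, adjusted p = 0.957 in edgeR), Ifi35 by 0.15, Oas1a by 0.27 and Irf7 by 0.36. Only Ifi44, at 36.1, 25.7 and 25.3 CPM against 20.9, 25 and 25, showed no overlap, beside 9.07% of all genes. Without WT-Clonidine 1 the median was 0.02, and the differences of Oas1a and Irf7 were -0.01 and -0.03. The T cell list was above 0 for 17 of 17 genes (median 0.6, 0 called). The summed endothelial list spanned 262 to 284 CPM under clonidine against 185 to 249 under guanabenz. The part of either list in these values was not tested.

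In PBS hosts the genotype made little difference to the set: KO against WT gave a median of -0.02 (16 above 0 and 19 below), beside 0 for all genes, and all 35 intervals lay inside 1 log2 unit of 0. edgeR's test called 0 of 35 beside 0.0062% of all genes, and 1 of 35 had an unadjusted p under 0.05 beside 3.68% of all genes. DESeq2 and limma-voom called 0 of 35, beside 0.105% and 0.0062% of all genes. Socs1 was lower in KO hosts at 0.805-fold (log2 change -0.31, SE 0.09, adjusted p = 1 in edgeR), and its libraries did not overlap, beside 8.33% of all genes. Samd9l differed by 0.21, Batf2 by -0.2 and Ddx60 by 0.18. The Socs1 differences against KO-Control under either drug and against WT-Control all use the same 3 KO-Control libraries. Without KO-Control 2 the median was -0.16, and without KO-Control 1 it was 0.14.

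Under clonidine, where KO and WT hosts differed in 403 of all genes by edgeR's test, Batf2 and Parp14 came nearest the threshold. That count was 312 without KO-Clonidine 2, 70 without KO-Clonidine 1 and 48 without WT-Clonidine 1, and 5, 2 and 1 without KO-Clonidine 3, WT-Clonidine 2 and WT-Clonidine 3. Batf2 was 0.715-fold in KO relative to WT hosts (log2 change -0.48, SE 0.14, adjusted p = 0.0714 in edgeR). By edgeR's test 0 of 35 were called, beside 2.5% of all genes, and 2 of 35 had an unadjusted p under 0.05 beside 19.6% of all genes. DESeq2 called Batf2 (adjusted p = 0.0152), as did limma-voom (-0.42, SE 0.12, adjusted p = 0.0458), and neither called another of the 35. In this comparison DESeq2 called 1148 of all genes (7.12%) and limma-voom 1266 (7.85%). Parp14 differed by -0.33 (SE 0.12, adjusted p = 0.148 in edgeR), from 134, 118 and 127 CPM to 118, 91.7 and 93.2. Irf1 differed by 0.15 (SE 0.07) and Stat2 by -0.29 (SE 0.16). Libraries did not overlap for Batf2, Parp14 and Stat2, lower in KO hosts, and for Irf1, higher, beside 27% of all genes. The median of the 35 was -0.039 (12 above 0 and 23 below), beside -0.008 for all genes. It was -0.18 without KO-Clonidine 1 and 0.11 without WT-Clonidine 1. Y-linked transcripts were above 1 CPM in 2 of 3 WT-Clonidine and 0 of 3 KO-Clonidine libraries, and the erythroid marker list spanned 89.3 to 178 CPM against 406 to 1620 CPM. The log2 difference was above 0 for 0 of 17 T cell genes (median -0.74, with 3 called lower) and for 0 of 9 NK cell genes (median -0.66, 0 called). Summed levels in KO-Clonidine against WT-Clonidine were also lower for conventional dendritic cells (75.7 to 82.6 against 92.7 to 104 CPM) and endothelial cells (221 to 256 against 262 to 284). The macrophage and monocyte list overlapped (6130 to 7130 against 6360 to 7340). The part of these lists in the values of the 35 genes was not tested.

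Under guanabenz, 33 of 35 genes were higher in KO than in WT hosts, beside 48.3% of all genes. The median of the 35 was 0.131, beside -0.006 for all genes. None passed: edgeR's test called 0 of 35 beside 0.0186% of all genes, with 0 of 35 at an unadjusted p under 0.05 beside 8.16% of all genes. DESeq2 and limma-voom each called 0, with 0 at that p. Of all genes they called 0.0868% and 0.0124%. Trim25 differed by 0.19 (SE 0.11, adjusted p = 0.669 in edgeR), Parp9 by 0.14, Ddx58 by 0.14 and Irf9 by 0.13. In 8 of the 35 genes (Ifit3, Mx2, Oasl1, Rsad2, Usp18, Ifih1, Ifi44 and Parp9) every KO-Guanabenz library lay above every WT-Guanabenz library, beside 12.3% of all genes without overlap in either direction. Usp18, for example, stood at 29.3, 25.8 and 29.5 CPM against 21.3, 23.7 and 23.3. These 8 vary together between libraries and are not 8 separate observations. The median ran from 0.06 without WT-Guanabenz 1 to 0.18 without WT-Guanabenz 2.

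Averaged over the 3 treatments, KO against WT gave a median log2 difference of 0.036 (24 above 0 and 11 below), beside -0.006 for all genes, and all 35 intervals lay inside 1 log2 unit of 0. edgeR's test called 0 of 35 beside 0.416% of all genes. DESeq2 and limma-voom also called 0 of 35, beside 3.73% and 2.24% of all genes. In edgeR 2 of 35 had an unadjusted p under 0.05, beside 17.4% of all genes. Those were Socs1 at -0.13 (SE 0.05, adjusted p = 0.218 in edgeR) and Batf2 at -0.19 (SE 0.08, adjusted p = 0.229 in edgeR). Parp14 differed by -0.14, Herc6 by -0.14, Ifi35 by 0.09, Usp18 by 0.19, Bst2 by 0.12 and Trim25 by 0.08, each with an interval that included 0. The median was -0.03 without KO-Control 2 and 0.09 without WT-Clonidine 1.

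Transcripts of the interferon genes themselves were scarce, and most were near the limit of detection. Of 18 type I ligand genes, 2 had enough counts to test: Ifnb1, with 1 to 47 counts per library (0.0147 to 0.333 CPM, median 0.0914), and Ifnz, at 0.308 to 0.806 CPM (median 0.498). Ifna1, Ifna5, Ifna6, Ifna9, Ifna12, Ifna14 and Ifna15 had 0 counts in all libraries. Ifna2, Ifna4, Ifna7, Ifna11, Ifna13, Ifna16, Ifnab, Ifne and Ifnk reached at most 0.0571 CPM, and the type III genes Ifnl2 and Ifnl3 at most 0.0198 CPM. Ifng, the type II interferon of T and NK cells, ranged from 0.162 to 1.21 CPM (median 0.525). In each of the 11 comparisons edgeR called 0 of these 3 tested ligands. Over the 11, the 2 type I genes gave 7 unadjusted p under 0.05 in 22 tests and Ifng gave 1 in 11, beside 10.3% of all gene tests, and comparisons that share libraries are not independent. DESeq2 called 0, and limma-voom called Ifnb1 in KO against WT averaged over treatments, where edgeR gave a log2 difference of 1.16 (SE 0.31, adjusted p = 0.0864).

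Every chain of the type I and type II receptors was well expressed and steady. Median levels were 96.3 CPM for Ifnar1, 65.7 for Ifnar2, 130 for Ifngr1 and 74.3 for Ifngr2. Of the type III receptor chains, Il10rb stood at 68.7 CPM, whereas Ifnlr1, the chain of epithelia, stood at 0.985 CPM. In each of the 11 comparisons edgeR called 0 of 6 receptor chains, with 10 unadjusted p under 0.05 in 66 tests (10.3% of all gene tests were under it). DESeq2 called 0 of them, and limma-voom called Il10rb after clonidine in WT hosts.

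Of other genes of the pathway, edgeR called 6, all between KO and WT hosts under clonidine. They were 2 of 16 genes of nucleic acid sensing and 4 of 87 other interferon-induced genes, beside 2.5% of all genes. Gm4951, an interferon-inducible GTPase, was lower at -0.64 (SE 0.12, adjusted p = 0.0205 in edgeR), with 12.8, 13.9 and 12.9 CPM in KO-Clonidine against 21.8, 19 and 21.1 in WT-Clonidine. Samhd1, which depletes nucleotides, was lower at -0.34 (adjusted p = 0.0217 in edgeR). The kinase gene Ikbke was lower at -0.48 (adjusted p = 0.0481 in edgeR) and Serpina3g, a protease inhibitor of lymphocytes, at -0.94 (adjusted p = 0.0394 in edgeR). Plscr1, a phospholipid scramblase, was higher at 0.3 (adjusted p = 0.0295 in edgeR), as was Apol9a at 0.71 (adjusted p = 0.0422 in edgeR). These 6 thus moved in both directions. When each of the 6 libraries was left out in turn, Gm4951, Samhd1, Plscr1 and Apol9a passed in 1 of 6 fits each and Ikbke and Serpina3g in 0 of 6, with the direction the same in all, and the highest adjusted p ranged from 0.0805 for Gm4951 to 0.17 for Ikbke. In the same comparison 0 of 17 T cell genes lay above 0 (median -0.74), and 3 of them, Cd5, Cd6 and Icos, were called lower. The part of that list in the values of the interferon-induced genes was not tested.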

How the data were processed

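The authors deposited a table of estimated counts per gene for the 18 libraries. Per the submitters' processing notes, Trim Galore 0.6.5 and kallisto 0.46.0 were used, with the genome build GRCm38. The deposited values are whole numbers; the step from transcripts to genes, and strand, are not given in the sources used here. kallisto divides reads between transcripts that share sequence. Of 21015 Entrez identifiers, 20994 matched a RefSeq symbol (GRCm38.p6); the other 21 held at most 0.0216% of the counts of a library.

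Groups were taken from the sample titles. Genes were kept with filterByExpr (16125), scaled by TMM, and fitted with 6 group means over all 18 libraries in edgeR 4.0.16 (R 4.3.3), with a biological coefficient of variation of 0.145. Its quasi-likelihood tests are two-sided, with Benjamini-Hochberg adjustment over all tested genes within each comparison, and an adjusted p under 0.05 was a call. The procedure was tested on simulated data. Levels are CPM after TMM, and log2 CPM used a prior count of 2. Per-kilobase levels divide CPM by the length of the longest coding transcript in GENCODE vM21. Shares of 31-base words come from the GENCODE transcripts of GRCm38, and promoters from RefSeq.

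The genes and lists were chosen with earlier results of these data known. Named with fold changes are the genes past the threshold and those with the smallest p, 8 in the clonidine comparisons against control and in KO against WT averaged, and 4 in the others, and every gene is given by level. Genes of other interferon lists are named by the same threshold or by the smallest p, and ligands and receptors by level. Krt8, Krt18, Cd5, Cd6 and Icos, and genes whose libraries did not overlap, were chosen after their values were seen. Each result was recomputed with DESeq2 1.42.0, with voom (limma 3.58.1) and quality weights, with RLE or total-count scaling, no filter, a stricter filter (1 CPM in 3 libraries), a replicate block, only the groups compared, each library left out, and KO-Guanabenz left out or read as KO-Control. Results for some pathway genes are not reported here.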

Additional observations from a re-analysis of the deposited data

How the results depend on the processing

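The number of the 35 genes called stayed at 0 under the other settings, except for 1 gene called, Batf2, with DESeq2 for guanabenz in KO hosts, and with DESeq2 and with limma-voom for KO against WT hosts under clonidine. With each library left out, 0 of 35 were called in every comparison, and the median changed sign in 8 of the 11 (not in the guanabenz difference, KO against WT under guanabenz, or clonidine against guanabenz). The lowest and highest medians then were -0.07 and 0.19 (clonidine in WT), -0.09 and 0.2 (clonidine in KO), -0.11 and 0.18 (their difference), -0.17 and 0.04 (guanabenz in WT), -0.06 and 0.24 (guanabenz in KO), -0.3 and -0.01 (their difference), 0.02 and 0.24 (clonidine against guanabenz), and for KO against WT -0.16 and 0.14 (control), -0.18 and 0.11 (clonidine), 0.06 and 0.18 (guanabenz) and -0.03 and 0.09 (averaged).

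Single genes were recomputed only where they were chosen by the smallest p in these same data, 60 over all comparisons. Such genes have large changes relative to their error, so their directions do not stand for the whole set. The median of the whole set changed sign in most comparisons when a library was left out (above). Of 1096 recomputed values of the chosen genes, 1091 kept their direction. The 5 others were Oas1a (-0.01) and Irf7 (-0.03) for clonidine against guanabenz without WT-Clonidine 1, Zbp1 (-0.04) for clonidine in KO hosts without KO-Clonidine 3, Ddx60 (-0.01) for KO against WT in control hosts without KO-Control 2, and Batf2 (0.06) there with KO-Guanabenz read as KO-Control. With other libraries left out the highest values were 0.42 (Oas1a), 0.58 (Irf7), 0.45 (Zbp1) and 0.42 (Ddx60). The cause was not tested. Total-count scaling moved the median of all genes by at most 0.086, from -0.008 to -0.094 for KO against WT under clonidine.

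Tools differed in how many of all genes they called. For clonidine in WT hosts edgeR called 0, DESeq2 353 and limma-voom 773, for guanabenz in WT hosts 0, 173 and 6, and for guanabenz in KO hosts 2, 443 and 343. For KO against WT under clonidine they called 403, 1148 and 1266, and averaged over treatments 67, 601 and 362. A fit of only the WT-Clonidine and KO-Clonidine libraries called 4 in place of 403. The replicate numbers in the titles did not pair the libraries: deviations of same-numbered libraries correlated with medians of 0.07, -0.01 and -0.06 for numbers 1, 2 and 3. A fit with the replicate number as a block (replicate block) called 0 of the 35 in every comparison, with a median of 0.08 for clonidine in WT hosts, and 333 genes in all for KO against WT under clonidine.

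For most of the 35 genes precision was limited by the 3 libraries per group rather than by depth. The 95% intervals lay within 1 log2 unit of 0 for at least 28 of the 35 genes in every comparison.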

Other observations

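The order of libraries within groups extends to interferon-induced genes outside the 35. This was looked at after the values were seen, in the 4 groups with the widest spread (KO-Control, WT-Control, KO-Clonidine and WT-Clonidine), as the number of genes whose 3 libraries stand in the same order as the median of the 35 in all 4 groups. Of 16125 genes, 57 did (0.353%). Of the 35, 13 did (37.1%), a share that the median itself helps to set. Of 87 other interferon-induced genes 25 did (28.7%), among them the chemokine gene Cxcl10, the nucleic acid sensing genes Ifi204, Ifi209 and Ifi213, the Schlafen genes Slfn1, Slfn8 and Slfn9, Trim30a, Sp100 and Znfx1. Ifit3b and Oas1g are also among the 25 and share sequence with Ifit3 and Oas1a. Of 15847 genes in none of the lists 19 did (0.12%). No gene did among the tested ligands (2 type I and Ifng), the 6 receptor chains, the 9 JAK-STAT genes or the 16 genes of nucleic acid sensing, nor in any of the cell type marker lists, T cell (17 genes) and macrophage and monocyte (14 genes) included.

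Of the chemokine genes whose products bind the receptor CXCR3, Cxcl10 and Cxcl9 stood apart from each other in this respect. Cxcl11, another of them, did not keep the order of the 35 in all 4 groups. Levels of Cxcl11, and of Cxcl10 in the guanabenz groups, are not reported here. Cxcl10 stood at 74.6, 79 and 66.7 CPM in WT-Control, 86.7, 76.2 and 60 in WT-Clonidine, 45.4, 69.7 and 55.3 in KO-Control, and 93.7, 42.9 and 50 in KO-Clonidine. Cxcl9, which interferon gamma induces most strongly, stood at 41, 51.1 and 96.6 CPM in WT-Control, 88.7, 86.8 and 127 in WT-Clonidine, 82.5, 38.9 and 63.8 in KO-Control, and 32.6, 62.5 and 38.3 in KO-Clonidine. In each of these 4 groups the library lowest for the median of the 35 (WT-Control 3, WT-Clonidine 3, KO-Control 1 and KO-Clonidine 2) was the highest for Cxcl9. Both genes were picked after their values were seen, and 4 groups of 3 libraries give no test of the difference. In WT-Clonidine, libraries 2 and 3 lay close for the median of the 35, at -0.04 and -0.08. In the other 2 groups Cxcl9 stood at 58.5, 88 and 118 CPM (WT-Guanabenz) and 64.9, 116 and 66.8 CPM (KO-Guanabenz). There the library lowest for the median of the 35 was the lowest for Cxcl9 in WT-Guanabenz (library 1) and the highest in KO-Guanabenz (library 2).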
